A study of Mus musculus with 5 samples.

Results

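Whole lungs of SM22-tet-BMPR2delx4+ mice given doxycycline were compared with whole lungs of the same genotype left without it, 2 of the 5 arrays in the series. Doxycycline turns on a mutant bone morphogenetic protein receptor, BMPR2delx4+, in cells that use the SM22 promoter, so the pool with doxycycline is called induced and the pool without it uninduced. Right ventricular pressure was 50 ± 8 mmHg in the induced mice and 30 ± 3 mmHg in the uninduced mice, with the kind of error not stated. Both titles give 8 weeks, which could be age or time on doxycycline, and neither the strain of the transgenic mice nor the number of animals in a pool is given. Both pools carry the transgene, so they differ in doxycycline itself as well as in the mutant receptor. The other 3 arrays were SM22-rtTA mice on doxycycline at 30 ± 3 mmHg, which carry the activator alone, wild-type FVB/N mice aged 8 weeks at 30 ± 3 mmHg, and hypoxic FVB/N mice of the same age, kept 4 weeks in hypoxia, at 50 ± 8 mmHg. The uninduced, SM22-rtTA and wild-type pools are called the normal-pressure pools. Of 12393 genes on the array, 7428 were measured, meaning above a noise floor of 276 scaled intensity units in the induced or the uninduced pool. Each condition was 1 array of pooled RNA, so no difference below has a replicate check or a test.

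BMPR2 is the type II receptor that, with a type I partner, passes BMP signals to SMAD transcription factors, and heritable pulmonary arterial hypertension is most often caused by mutations in its gene. In vessel walls, BMP signalling restrains smooth muscle growth and keeps endothelium quiescent, and the inhibitor of differentiation (Id) genes are among its direct targets. SM22 is the protein product of Tagln, a gene active in vascular and airway smooth muscle, and no value here shows in which cells the transgene was active.

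The genes that separated the pools most were those of striated muscle. Short stretches upstream of 4 of them, chosen because each holds a known muscle motif, are printed with the matching letters in capitals. They come from RefSeq on the mouse build GRCm38.p6, end at the base before the annotated start, and run 5′ to 3′ on the gene's strand. Acta1 lies on the minus strand at chr8:123894776-123894975, and its CArG box, the motif recognised by serum response factor, begins 73 bases upstream. Myl3 lies on the plus strand at chr9:110763478-110763677, with a CArG box 85 bases upstream. Ttn lies on the minus strand at chr2:76982548-76982747, with a match to the MEF2 motif 166 bases upstream. Mylpf lies on the plus strand at chr7:127211408-127211607, with a myogenic E-box of the letters CAGCTG 51 bases upstream.
Acta1: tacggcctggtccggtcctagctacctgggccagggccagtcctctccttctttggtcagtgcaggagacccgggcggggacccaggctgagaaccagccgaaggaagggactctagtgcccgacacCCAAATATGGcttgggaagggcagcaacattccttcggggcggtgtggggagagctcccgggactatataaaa
Myl3: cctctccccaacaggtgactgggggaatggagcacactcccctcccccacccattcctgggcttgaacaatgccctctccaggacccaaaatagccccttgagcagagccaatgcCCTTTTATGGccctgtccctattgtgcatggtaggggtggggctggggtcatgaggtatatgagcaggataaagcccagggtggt
Ttn: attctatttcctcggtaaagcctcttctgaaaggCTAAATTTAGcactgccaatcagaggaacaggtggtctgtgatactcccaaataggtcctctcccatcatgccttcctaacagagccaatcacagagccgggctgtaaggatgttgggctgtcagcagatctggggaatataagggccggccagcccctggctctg
Mylpf: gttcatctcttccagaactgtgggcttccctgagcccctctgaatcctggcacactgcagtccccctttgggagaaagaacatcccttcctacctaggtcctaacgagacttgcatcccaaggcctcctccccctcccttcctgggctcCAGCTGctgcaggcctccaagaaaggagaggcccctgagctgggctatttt

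Of the 62 striated muscle genes at least 2-fold higher in the induced pool, 51 had a promoter entry, giving 63 windows of 250 upstream bases. Searched on both strands, the CArG box was found in 9.52% of these windows (5 genes), against 1.47% of all 32851 mouse promoter windows of that length. The MEF2 motif, whose A/T-rich core can overlap a CArG box, was in 3.17% of the windows (2 genes) and in 0.508% of all. CAGCTG, which reads the same on both strands, was in 34.9% (20 genes) and in 13% of all. These shares describe letters in a window and not sites in use.

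The labelled tissue was checked against defining lung genes. Sftpc, the surfactant protein made by alveolar type 2 cells, had a scaled intensity of 10705 in the induced and 11529 in the uninduced pool. Scgb1a1, the secretory protein of club cells, had 11445 and 11202. Ager, a marker of alveolar type 1 cells, had 5133 and 6538, so the main lung epithelial markers were among the brighter probe sets in both pools. The Bmpr2 probe set exceeded the floor only in the SM22-rtTA pool, at 357. Whether it lies in sequence that the transgene carries is not known, so it does not check the induction. The wild-type pool stood apart from the transgenic pools in genes of other tissues. Kap, an androgen-regulated kidney protein, reached 6471 there against 478 in the induced, 555 in the uninduced and 483 in the SM22-rtTA pool. Counts against the normal-pressure pools are therefore also given without it.

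Of the 7428 measured genes, 145 were at least 2-fold higher in the induced pool, which is 1.95% of those measured, and 40 were at least 2-fold lower, or 0.539%. At 1.5-fold the counts were 433 higher (5.83%) and 221 lower (2.98%). The median log2 ratio of induced over uninduced over all measured genes was 0.01. The noise reference was the SM22-rtTA pool against the same uninduced pool, both at normal pressure: 42 genes were at least 2-fold higher (0.58% of 7245) and 64 lower (0.883%). The SD of the log2 ratios of genes above the floor in the pools compared was 0.38 for induced over uninduced, 0.33 once striated muscle and keratin genes were left out, and 0.34 for SM22-rtTA over uninduced. By SD, the spread without striated muscle and keratin genes was near that of the 2 normal-pressure transgenic pools, whose 0.34 includes those genes. Without muscle and keratin genes, 71 genes were at least 2-fold higher (0.971%) and 40 lower (0.547%). The noise reference pair also differs in genotype and doxycycline, so it describes a spread only. The plot of the ratio distributions shows where they part: the all-gene distribution has a long right tail that the reference lacks.

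**Figure D1:**
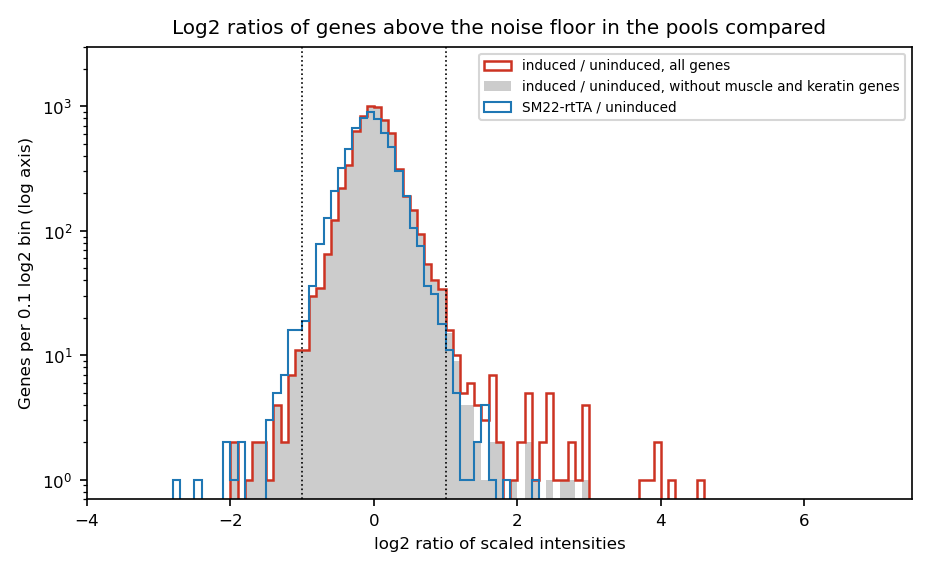
Number of genes (log axis) per 0.1-wide bin of log2 ratio. The red line shows induced over uninduced for all genes, grey the same without striated muscle and keratin genes, and the blue line SM22-rtTA over uninduced. Genes were above the noise floor in the induced and uninduced pools, and for the blue line in the SM22-rtTA pool as well. Dotted lines mark 2-fold; the red line extends to a log2 ratio of 4.53 on the right and to -1.92 on the left.

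The high side held 145 genes, of which 74 belonged to the striated muscle and keratin set, 180 genes on the array and 115 measured. None of the 40 lower genes belonged to it. The set's share grew with the fold: it held 56 of the 80 genes at least 3-fold higher and 14 of the 15 at least 10-fold higher. The remaining gene past 10-fold was Myh8, the perinatal skeletal myosin heavy chain, at 2834 in the induced pool and at the floor in the uninduced pool, at least 10.3-fold higher. It is a muscle gene missing from the lists. Only 7 genes were at least 3-fold lower. The induced pool was the highest of all 5 pools for 117 of the 145 genes. The 145 were chosen as higher than the uninduced pool, which favours this count. Its share over all measured genes was not counted, so nothing is read from it. In the uninduced pool 61 of the 145 were at the floor, so their ratios are lower bounds.

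**Figure D2:**
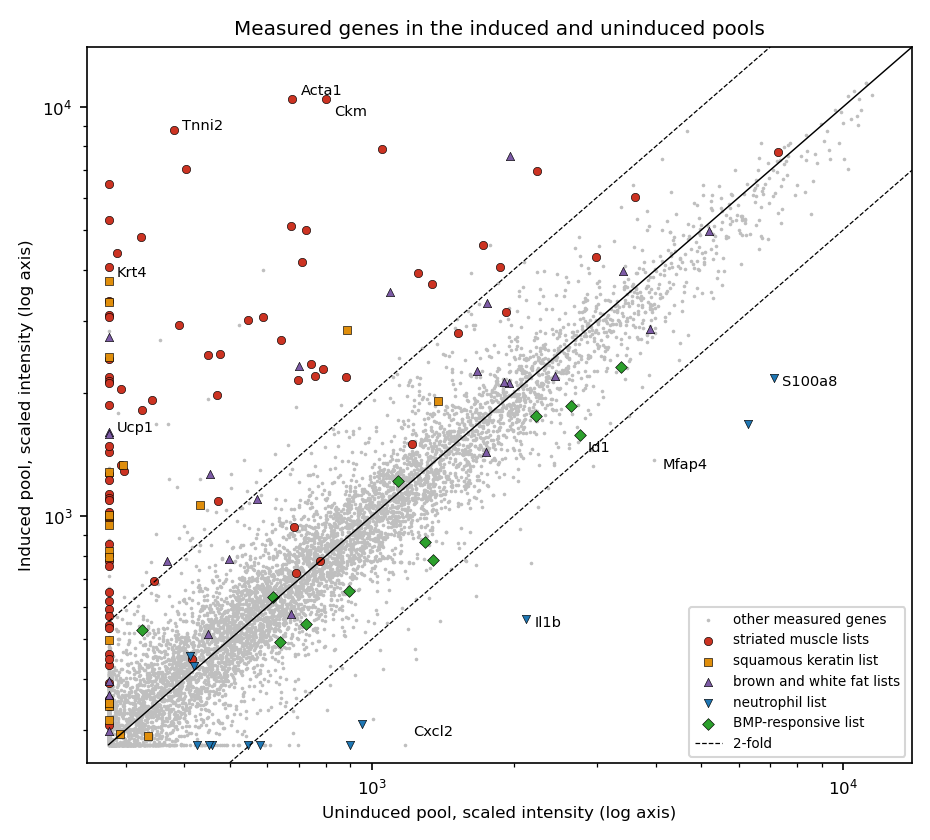
Scaled intensity of each measured gene in the uninduced pool (horizontal, log axis) and the induced pool (vertical, log axis), 1 point a gene, with gene lists coloured and dashed lines at 2-fold. Striated muscle genes (red) fill the upper left, reaching Acta1 at 10435 against 677, and several neutrophil genes (blue) lie far below the diagonal.

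Fast-twitch sarcomere genes, which encode the contractile filaments of skeletal muscle, stood furthest from the diagonal. Tnnc2, the calcium-binding troponin C of fast muscle, had a scaled intensity of 6493 in the induced pool, was at the floor in the uninduced, wild-type and SM22-rtTA pools, and reached 1799 in the hypoxic pool. It was at least 23.5-fold higher in the induced than in the uninduced pool. Tnni2, the inhibitory troponin of fast muscle, had 8770 in the induced and 379 in the uninduced pool, a ratio of 23.1, with 2367 in hypoxia and the floor value in wild type and SM22-rtTA. Acta1, skeletal muscle actin, had 10435 in the induced pool, 677 in the uninduced, 5064 in the hypoxic pool and the floor value in wild type and SM22-rtTA. For Tnnc2, Tnni2 and Acta1 the induced pool was highest and hypoxia second. The normal-pressure pools were at or near the floor, except for Acta1 at 677 in the uninduced pool. Of 22 listed genes, 16 were on the array and 15 measured, 13 of them at least 2-fold higher and none lower, with a median log2 ratio of 3.13. Because 10 of the 15 were measured through the induced pool alone, they could only be higher, and the 5 genes above the floor in both pools had a median of 3.95. The heavy chains Myh1, Myh2, Myh4 and Myh8 are near-identical in sequence, and how their probe sets divide them is uncertain.

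Genes for calcium cycling and energy supply of muscle followed the sarcomere. Ckm, the muscle creatine kinase that buffers ATP, had 10428 in the induced and 799 in the uninduced pool, with 2590 in hypoxia, 575 in wild type and 530 in SM22-rtTA, a ratio of 13.1. Atp2a1, the calcium pump of fast fibres, had 4798 and 324, a ratio of 14.8. Eno3, the muscle enolase, had 4392 and 288, a ratio of 15.3. All 3 were several-fold above every other pool. Of the 25 genes measured (29 on the array), 23 were at least 2-fold higher (1.95% of all measured genes were). The median was 2.07, and the 16 above the floor in both pools had a median of 2.47. Z-disc and titin-associated genes had a median of 1.98 over 24 measured genes, 14 at least 2-fold higher. Ttn, the giant spring protein of the sarcomere, had 3093 in the induced pool, 296 in wild type and the floor value in the other 3 pools. In this list the 11 genes above the floor in both pools had a median of 0.52, among them Fhl1, a LIM-domain protein, at 7774 and 7258.

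Slow and cardiac sarcomere genes had a smaller median ratio, and 14 of 22 were above the floor in both pools. Myl7, the atrial myosin light chain, had 4056 in the induced pool, 1868 in the uninduced, 1390 in hypoxia, 1794 in wild type and 1815 in SM22-rtTA, a ratio of 2.17. Myl4, a second atrial light chain, had 4589 and 1723. Cardiac muscle extends along the pulmonary veins of mice, and both light chains were well above the floor in all 5 pools. Myl3, the light chain shared by ventricle and slow skeletal fibres, had 5127 in the induced and 673 in the uninduced pool, a ratio of 7.61. Nppa, the atrial natriuretic peptide, had 308 in the induced pool and the floor value in the uninduced pool, with 561 in wild type. All 22 measured genes came from 24 on the array, with a median of 1.36. At least 2-fold higher were 16 of them (1.95% of all measured genes were). Joined, the 4 muscle lists had 82 measured genes and a median of 1.86. The induced pool was above all 3 normal-pressure pools for 79 of them, where 26.5% of all measured genes were, and above both transgenic normal-pressure pools for 81, where 42.9% were. Of the 82, 44 were above the floor in both pools; the rest, at the floor in the uninduced pool, could only be above it, so these counts are a description.

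Smooth muscle genes, those of the compartment in which the transgene is driven, had a list median near 0 on the log2 scale. Tagln, whose promoter drives it, had 3915 in the induced and 3633 in the uninduced pool, with 2941 in hypoxia, 2221 in wild type and 2768 in SM22-rtTA, a log2 ratio of 0.11. Acta2, smooth muscle actin, had 5655 and 5234, also 0.11. Myh11, the smooth muscle myosin, had 2094 and 1924, or 0.12. For these 3 genes the induced and uninduced pools lay close together and above the other 3. Des, the intermediate filament protein of all muscle types, had 2799 and 1520, and Actg2, the actin of visceral smooth muscle, had 1609 and 1020. With Itga5, an integrin chain at 462 and the floor value, they were the 3 members at least 1.5-fold higher (5.83% of all measured genes were). Itga5 had 420 in SM22-rtTA, and its other probe set went the opposite way, at a log2 ratio of -0.46. The induced pool was above all 3 normal-pressure pools for 12 of the 20 measured genes (26.5% of all measured genes). It was above both transgenic ones for 12 as well (42.9% of all). Over the 20 measured genes the median was 0.11, none was 2-fold higher, and the 1 gene 2-fold lower was Itga8, described below. Against the SM22-rtTA pool the same list had a median of 0.46, and SM22-rtTA over uninduced a median of -0.34, so the level depends on which normal-pressure pool is the comparator. In whole lung, fewer cells of a type and less RNA per cell cannot be told apart, here and below.

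Squamous keratin and cornified envelope genes, typical of stratified epithelium such as that of the oesophagus, were the other large block. Krt4, a keratin of mucosal squamous epithelium, had 3748 in the induced pool, reached 7459 in hypoxia and was at the floor in the 3 normal-pressure pools, at least 13.6-fold higher than uninduced. Krt13, its pairing partner, had 3333 and 5984 and was likewise at the floor elsewhere. Krtdap, a keratinocyte differentiation protein, had 2448 and 3395. The 2 pools with raised pressure were thus the only ones in which these 3 genes were detected. Of 33 listed genes on the array 19 were measured, 12 at least 2-fold higher (1.95% of all measured genes were), with a median of 1.57. Only 6 of the 19 were above the floor in both pools, with a median of 0.88, and the others could only be higher. For muscle and squamous genes alike, the part that tissue next to the lung had in the pooled RNA was not tested.

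**Figure D3:**
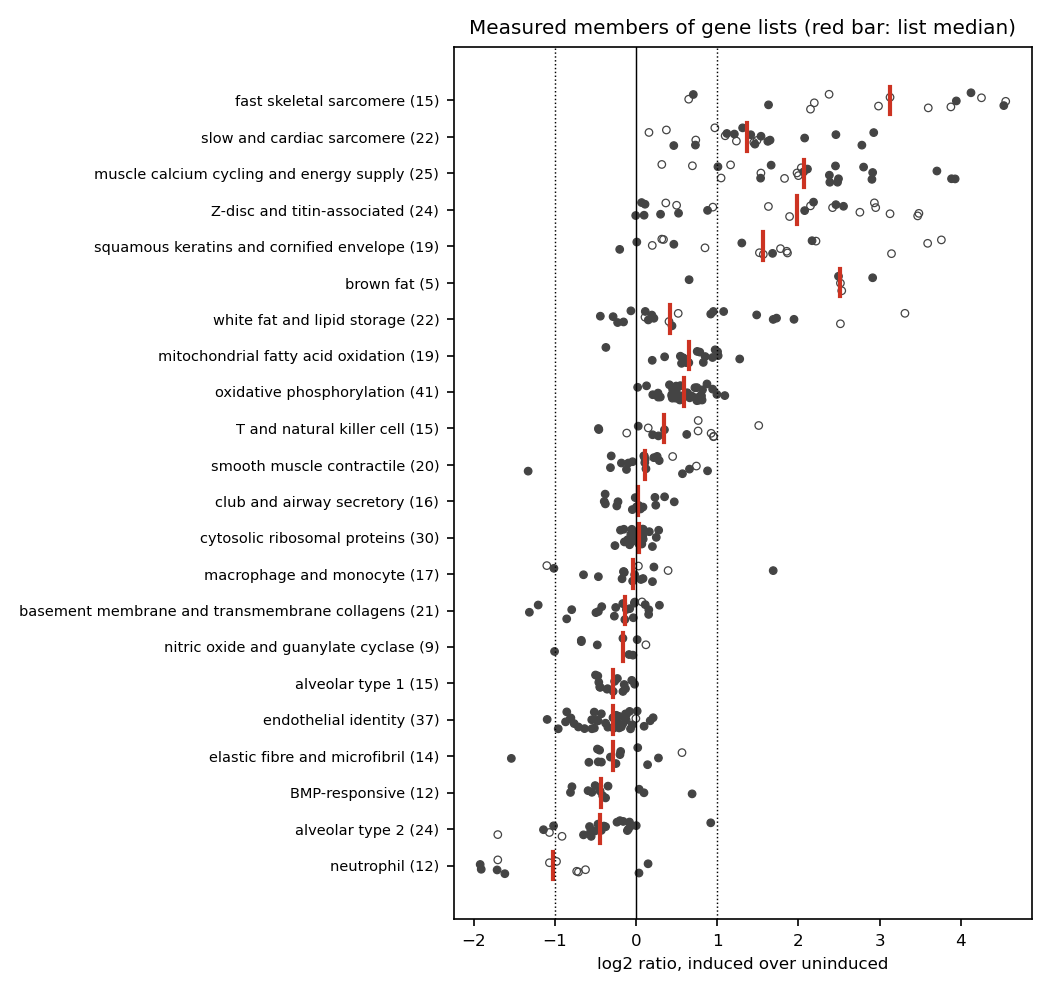
Log2 ratio of induced over uninduced for each measured member of 22 gene lists (number measured in brackets), 1 point a gene, with open points for genes at the floor in 1 pool and red bars at list medians. Muscle and squamous lists have medians from 1.36 to 3.13, smooth muscle, club cell and ribosomal lists lie near 0, and the neutrophil list is lowest at -1.02.

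With the set left out, 7313 genes were measured, of which 71 were at least 2-fold higher (0.971%) and 40 at least 2-fold lower (0.547%). The induced pool exceeded both transgenic normal-pressure pools for all 71 and all 3 normal-pressure pools for 55. Over all measured genes these shares were 42.9% and 26.5%, at any size of difference. The 71 were chosen as higher than the uninduced pool, so nothing is read from the comparison. The induced pool was the highest of the 5 for 51, a count that the same choice favours. Its share over all measured genes was not counted. At the floor in the uninduced pool were 24 of the 71. The highest of the 71 that was above the floor in both pools was Cdh20, a classical cadherin, at 2689 in the induced pool and 356 in the uninduced, with 529 in hypoxia, 488 in wild type and 570 in SM22-rtTA, a ratio of 7.56. By a list written after the values were seen, 22 of the 71 are further striated muscle genes. They include Eef1a2, the muscle and neuron form of elongation factor, at 2936 and 523, and Ak1, muscle adenylate kinase, at 1928 and 448. Mef2c, a transcription factor of muscle and heart, had 1231 and 432, and Hk2, the hexokinase of muscle and fat, had 1416 and 624. The set as defined therefore left muscle genes behind. A further 12 of the 71 are on the fat and mitochondrial lists, 1 is on the T-cell list and 36 are on none of these.

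Several genes of fat were higher in the induced pool than in the uninduced, and these were also high in wild type. Ucp1, the uncoupling protein that defines brown fat, had 1600 in the induced pool, 797 in wild type and the floor value in the other 3, at least 5.79-fold higher than uninduced. Cidea, a lipid droplet protein of brown fat, had 1582 and, in wild type, 1259, again with the other 3 at the floor. Adipoq, the fat-cell hormone adiponectin, had 1270 in the induced pool, 453 in the uninduced, 792 in hypoxia, 1957 in wild type and 811 in SM22-rtTA. Fabp4, the fatty acid carrier of fat cells and macrophages, had 3521 and 1091, with 6266 in wild type. Gpd1, which makes glycerol phosphate for lipid synthesis, had 3982 and 586, with 4910 in wild type. Car3, the carbonic anhydrase of fat and slow muscle, had 7578 and 1967, with 8361 in wild type. The normal-pressure pools thus spanned a wider range than the induced and uninduced pools did for Adipoq and Fabp4. Brown fat had 5 measured genes of 10 on the array, 4 at least 2-fold higher and a median of 2.52, though Cox8b and Cox7a1 of this list are also muscle genes. The 3 above the floor in both pools had a median of 2.49, and Ucp1 and Cidea could only be higher. White fat had 22 measured, 7 at least 2-fold higher and a median of 0.42, but the 17 above the floor in both pools had a median of 0.22. Over all measured genes 1.95% were at least 2-fold higher. For 16 of the 71 genes outside the set, wild type was above the induced pool.

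Mitochondrial genes showed many small differences of 1 direction. All 41 measured subunits of oxidative phosphorylation had a ratio above 1, with a median log2 ratio of 0.59, and 21 were at least 1.5-fold higher. Uqcrfs1, the iron-sulphur subunit of complex III, had 2434 in the induced pool, 1140 in the uninduced, 1266 in hypoxia, 4118 in wild type and 1267 in SM22-rtTA. Cyc1, cytochrome c1, had 3701, 1855, 1997, 4919 and 1482 in the same order. Induced was above both transgenic normal-pressure pools for 41 of 41, and above all 3 normal-pressure pools for 1, since wild type was higher. Over all 7428 measured genes, 3860 had a ratio above 1. Of all measured genes, 42.9% were above both transgenic pools, 26.5% above all 3 and 5.83% at least 1.5-fold higher. Fatty acid oxidation genes had a median of 0.65 over 19 measured, 18 above 0 and 12 at least 1.5-fold higher; the induced pool was above both transgenic normal-pressure pools for 18 and above all 3 normal-pressure pools for 4. Hadhb, the thiolase subunit of the trifunctional protein, had 3936 and 1624, with 3807 in wild type. Muscle and brown fat are both rich in mitochondria, and the share of these tissues in the difference was not tested. Ribosomal protein genes, which every cell uses, had a median of 0.03 over 30 and none past 1.5-fold.

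Some genes of thymocytes and T cells were also higher, though 1 of the 71, Rag1, is on the T and natural killer list. Satb1, a chromatin organiser of thymocytes, had 1234 in the induced and 371 in the uninduced pool. Rag1, the recombinase of developing lymphocytes, had 788 in the induced pool and the floor value in the uninduced, but 628 in wild type and 534 in hypoxia. Cd3d and Cd3g, chains of the T-cell receptor complex, had 524 and 536 and were at the floor in the uninduced pool. They were at least 1.90-fold and 1.94-fold higher, and as lower bounds these were not called 2-fold. The T and natural killer list had 15 measured genes, 7 at least 1.5-fold higher (5.83% of all measured genes were) and a median of 0.35. The 7 above the floor in both pools had a median of 0.20. For the others the pool at the floor fixed the direction, so nothing is read from the share past 1.5-fold. Cd3e of the same complex had 291 and 399, the opposite direction. Xist, transcribed from the inactive X chromosome, had 1845 in the induced, 689 in the uninduced and 1403 in the hypoxic pool, and was at the floor in the other 2. Eif2s3y, a gene of the Y chromosome, had 285 and 366. The labels do not give the sex of the animals, and its part in any ratio was not tested. Rgs5, a regulator of G-protein signalling in pericytes, had 1370 and 536, yet only 1 of 14 measured pericyte genes was past 1.5-fold, and the list's median was -0.17. Of the 81 named genes past 2-fold, none had another probe set past 1.5-fold in the opposite direction. Other probe sets of Rgs5, Xist, Gpd1, Ak1 and Fabp4, among others, had log2 ratios as low as 0.00. Over the settings tried, the log2 ratio of Ak1 ranged from 0.22 to 2.19.

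Among the 40 lower genes, the largest differences were in neutrophil and inflammatory genes. Il1b, the cytokine interleukin-1 beta, had 562 in the induced pool, 2126 in the uninduced, 693 in hypoxia, the floor value in wild type and 594 in SM22-rtTA, 3.79-fold lower. S100a9, an alarmin stored in neutrophils, had 1675, 6283, 1020, 276 and 4095 in the same order. S100a8, its partner, had 2174, 7120, 1720, 276 and 4672. In all 3 the uninduced pool was the highest of the 5, and the induced pool lay within the range of the normal-pressure pools. Cxcl2, a neutrophil attractant, was detected in the uninduced pool alone, at 1176, which is at least 4.26-fold above the floor value of the other 4. Over 12 measured neutrophil genes (16 on the array) the median was -1.02 and 6 were at least 2-fold lower (0.539% of all measured genes were). Only 6 of the 12 were above the floor in both pools, with a median of -1.66. For the others, the pool at the floor fixed the direction. Against the SM22-rtTA pool the median of the 12 was -0.25, and that pool had a median of -0.59 against the uninduced. Igha, the heavy chain of immunoglobulin A, had 768 in the induced pool and 2178 in the uninduced, with 453 in hypoxia, 1477 in wild type and 1624 in SM22-rtTA, while the B-cell list as a whole had a median of 0.37, which became -0.24 against the mean of the 2 transgenic normal-pressure pools. Ccl6, a chemokine of macrophages and neutrophils, had 473 and 1233, and 991 to 1680 in the other pools. Of the 12 neutrophil genes, 2 were below all 3 normal-pressure pools and 7 below both transgenic ones, but wild type was at the floor for several, such as S100a8, which no pool can be below. The size of the difference therefore depended on which normal-pressure pool was the comparator.

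**Figure D4:**
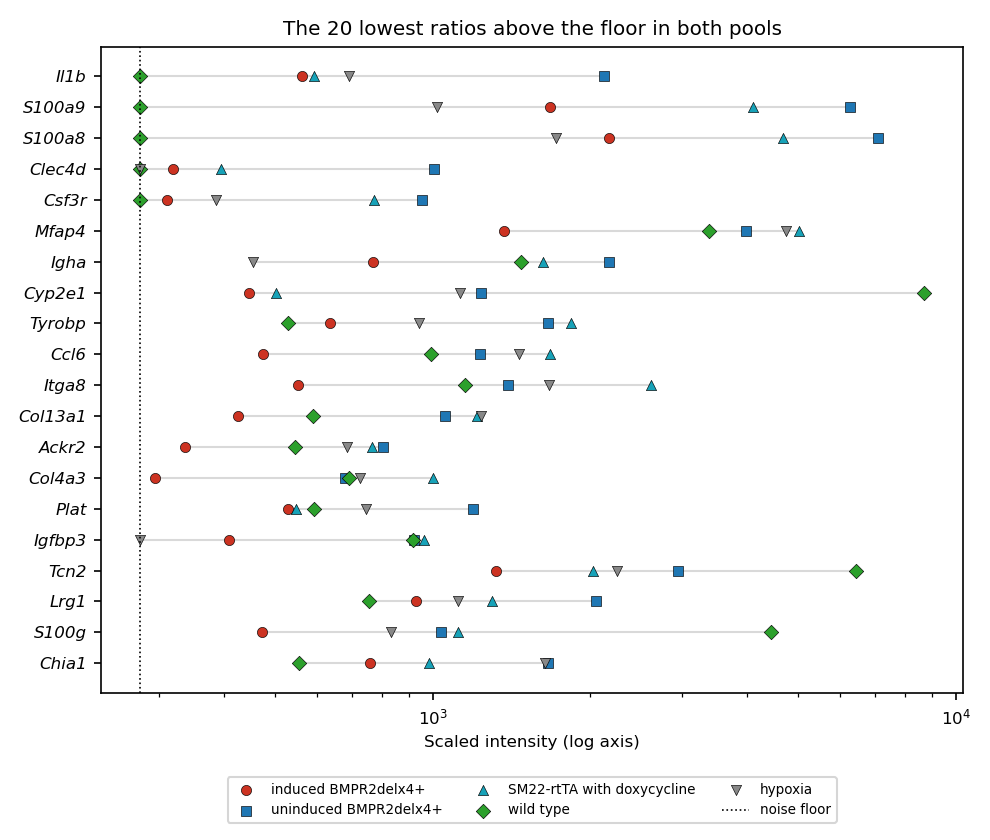
Scaled intensity (log axis) in each of the 5 pools for the 20 genes with the lowest ratio of induced over uninduced among those above the noise floor in both, 1 symbol a pool. For Il1b, S100a9, S100a8, Clec4d and Csf3r the uninduced pool (blue square) is the highest, while for Mfap4, Itga8, Col13a1 and Col4a3 the induced pool (red circle) is the lowest of the 5.

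Of the 40 lower genes, 21 were below all 3 normal-pressure pools and 35 below both transgenic ones. Over all measured genes these shares were 17.1% and 30.6%, at any size of difference, but the 40 were chosen as lower than the uninduced pool, so nothing is read from the comparison. The induced pool was the lowest of the 5 for 19. The uninduced pool was the highest of the 5 for 22, and for 25 the SM22-rtTA pool was also below the uninduced. The same choice favours these counts, and their shares over all measured genes were not counted. The 19 with the induced pool lowest held genes of several kinds, among them Cyp2e1, a cytochrome P450, Tcn2, a carrier of vitamin B12, and 4 of matrix and cell adhesion. Mfap4, a microfibril protein of elastic fibres, had 1368 in the induced pool, 3969 in the uninduced, 4735 in hypoxia, 3377 in wild type and 5028 in SM22-rtTA, 2.90-fold lower. Itga8, an integrin chain of smooth muscle and alveolar fibroblasts, had 554, 1393, 1666, 1153 and 2610. Col13a1, a transmembrane collagen, had 424, 1054, 1239, 591 and 1214. For these 3 genes the 4 other pools lay above the induced pool without overlap. Col4a3, a collagen of the alveolar basement membrane, had 295 and 680, with 692 to 1001 in the other pools.

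Igfbp3, a carrier of insulin-like growth factors, had 409 in the induced pool and 919 to 961 in the normal-pressure pools, but was at the floor in hypoxia. Nox4, an oxidase that makes hydrogen peroxide in vessel walls, had 323 and 693, with 2014 in wild type. The wild-type pool was also high in Kap, and the part of other tissue in its Nox4 value was not tested.

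The wider matrix lists showed less. Elastic fibre genes had a median of -0.28 over 14 measured, with Mfap4 the 1 gene past 1.5-fold, and Eln, elastin itself, had 1700 and 2018. Basement membrane and transmembrane collagens had a median of -0.14 over 21, with 4 at least 1.5-fold lower (2.98% of all measured genes were). These were Col13a1, Col4a3, and the laminin chains Lama3 (377 and 682) and Lamb3 (396 and 686). Fibrillar collagens and small proteoglycans had a median of -0.11 over 26. Lum, the proteoglycan lumican, had 874 in the induced pool and the floor value in the uninduced, at least 3.16-fold higher, with 294 to 435 in the other pools. Lox, the enzyme that cross-links collagen and elastin, had 1754 in the induced and 3518 in the uninduced pool, but wild type was lower still at 1211. Col1a1, a chain of type I collagen, had 1588 and 1300, with 1728 in wild type.

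Genes that respond to BMP signalling were mostly a little lower in the induced pool. Id1, a direct SMAD target, had 1576 in the induced pool, 2759 in the uninduced, 3153 in hypoxia, 2837 in wild type and 2787 in SM22-rtTA, a log2 ratio of -0.81. The 4 other pools lay within 2759 to 3153, and the induced pool stood alone below them. Hey1, a transcriptional repressor induced by BMP and Notch, had 781, 1350, 1129, 944 and 993, or -0.79. Smad7, an inhibitory SMAD that BMP and TGF-beta induce, had 862, 1299, 1459, 1257 and 1618, or -0.59. These 3 were the members at least 1.5-fold lower. Id3 had 1753 and 2226, and Id2 had 657 and 893. Id4 went the other way, at 525 against 325, the 1 member at least 1.5-fold higher. Of 20 listed genes, all on the array, 12 were measured, all of them in both pools. Their median was -0.43, 9 were below 0, 7 were below all 3 normal-pressure pools and 9 below both transgenic ones, and none reached 2-fold. Over all 7428 measured genes, 3568 were below 0. Of all measured genes, 17.1% were below all 3, 30.6% below both transgenic pools and 2.98% at least 1.5-fold lower.

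**Figure D5:**
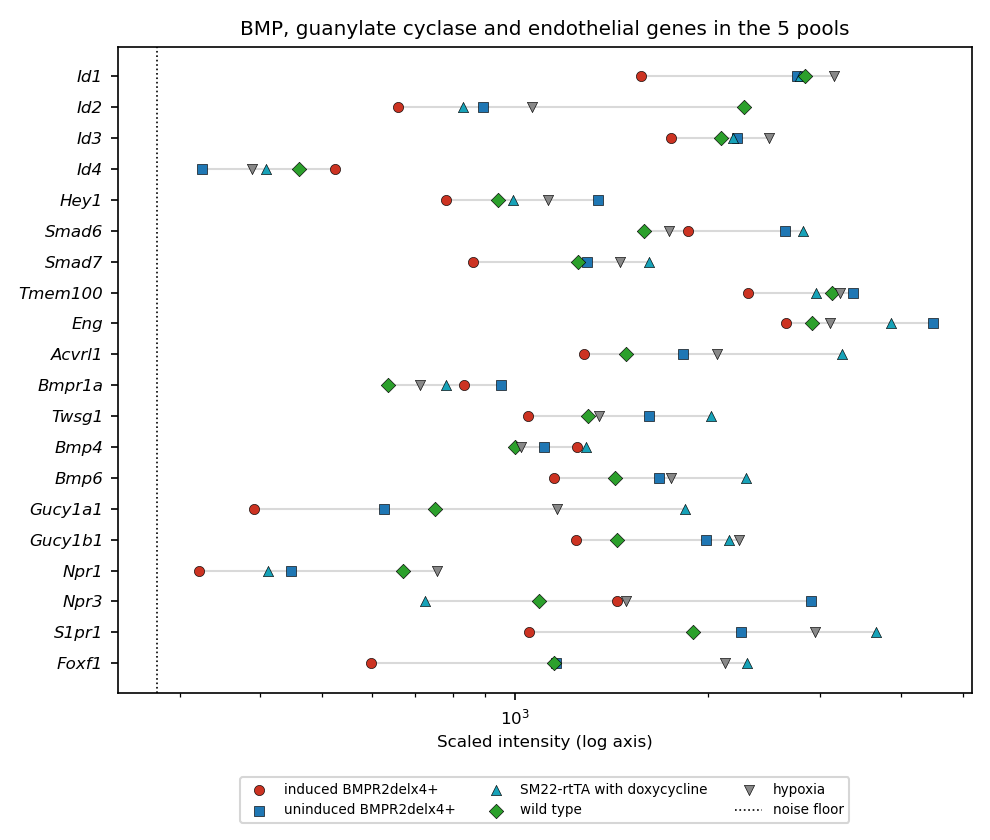
Scaled intensity (log axis) in each of the 5 pools for 20 genes of BMP signalling, guanylate cyclase and natriuretic peptide receptors and endothelium, 1 symbol a pool. The induced pool (red circle) is the lowest for Id1, Hey1, Smad7, Eng, Acvrl1, Gucy1a1, Gucy1b1, S1pr1 and Foxf1 among others, and the highest for Id4.

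The receptors and ligands of the pathway differed less. Eng, an endothelial co-receptor, had 2651 in the induced pool, 4497 in the uninduced, 3106 in hypoxia, 2906 in wild type and 3865 in SM22-rtTA, or -0.76. Acvrl1, the endothelial type I receptor, had 1282, 1832, 2072, 1492 and 3246, or -0.51. Bmpr1a, the type I receptor of smooth muscle and epithelium, had 833 and 951, and Bmp4, a ligand made by lung mesenchyme, had 1253 and 1111. The induced pool was the lowest of the 5 for Eng and Acvrl1 and within the others for Bmpr1a and Bmp4. Over 17 measured genes the median was -0.15, with 2 at least 1.5-fold lower, Eng and Twsg1, and none higher. Over all measured genes 2.98% were at least 1.5-fold lower. TGF-beta genes had a median of -0.13 over 17 with none past 1.5-fold, Notch genes -0.09 over 14 and WNT genes -0.08 over 16.

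Vasodilator signalling included lower genes as well. Gucy1a1 and Gucy1b1 encode the chains of the smooth muscle enzyme that senses nitric oxide and makes cyclic GMP. Gucy1a1 had 392 in the induced pool, 626 in the uninduced, 1164 in hypoxia, 751 in wild type and 1847 in SM22-rtTA, a log2 ratio of -0.67. Gucy1b1 had 1247, 1989, 2238, 1442 and 2160, also -0.67. Npr3, the clearance receptor of natriuretic peptides, had 1446 and 2901 but 725 in SM22-rtTA. The induced pool was thus lowest for the cyclase chains, whereas for Npr3 the uninduced pool was high. Over 9 measured genes of the list the median was -0.16. Edn1, the vasoconstrictor endothelin-1, had 1884 and 2662, and wild type had 1648.

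Endothelial genes were slightly lower as a list. S1pr1, a sphingosine phosphate receptor that maintains vessel barriers, had 1054 in the induced pool, 2251 in the uninduced, 2946 in hypoxia, 1901 in wild type and 3666 in SM22-rtTA, 2.14-fold lower. Foxf1, a transcription factor of lung mesenchyme and capillaries, had 597, 1161, 2130, 1153 and 2302. Pecam1, a junctional adhesion molecule, had 1501 and 2619, with 1308 in wild type. S1pr1 and Foxf1 were lowest in the induced pool, and Pecam1 was not. Of 38 genes on the array 37 were measured, 33 with a ratio below 1 and 9 at least 1.5-fold lower, with a median of -0.28. Over all 7428 measured genes, 3568 had a ratio below 1 and 2.98% were at least 1.5-fold lower. The same list had a median of -0.41 against SM22-rtTA and -0.02 for SM22-rtTA over uninduced. The induced pool lay below all 3 normal-pressure pools for 17 of 37 genes (17.1% of all measured genes) and below both transgenic ones for 26 (30.6% of all). Kdr, the main receptor of vascular endothelial growth factor, was an exception at 3212 and 2847.

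Alveolar epithelial genes showed a like shift. The type 2 list had a median of -0.45 over 24 measured genes, 22 of them below 0 (3568 of all 7428 measured genes were). For 15 the induced pool was below all 3 normal-pressure pools (17.1% of all measured genes) and for 22 below both transgenic ones (30.6%). Napsa, the protease that processes surfactant protein B, had 1452 in the induced pool, 2936 in the uninduced, 3163 in hypoxia, 7080 in wild type and 3549 in SM22-rtTA. The part of other tissue in the wild-type value was not tested. Sftpb had 6571 and 8649, and Slc34a2, the phosphate transporter of type 2 cells, had 4485 and 6617. Lcn2 and Chil1 of this list are neutrophil genes too. All 15 measured type 1 genes were below 0, none past 1.5-fold, with a median of -0.28. The endothelial and type 1 medians were both -0.28 and the type 2 median was -0.45. Whether these are linked to the higher muscle, fat and squamous genes of the same pool was not tested. In the airway lists, club cell genes had a median of 0.02 over 16, whose sign changed with the scaling. For ciliated genes, 6 of 6 measured were above 0 (3860 of all 7428 measured genes were), with a median of 0.15. Mlf1 of that list had 1675 and 370, and the next, Rsph1, had 638 and 520. Macrophage genes had a median of -0.04 over 17.

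Response programmes that handling or hypoxia can alter had medians near 0, several of which changed sign under other settings. Immediate early genes had a median of -0.08 over 24, glucocorticoid-responsive genes -0.18 over 17 and clock genes 0.21 over 14. Targets of hypoxia-inducible factors and glycolytic genes had 0.05 over 26, and the genes at least 1.5-fold higher in that list were Hk2, Aldoa and Tpi1, which muscle also expresses strongly. Vegfa had 1841 and 2015, and Slc2a1, the glucose transporter raised in hypoxic cells, had 586 and 646. Interferon-stimulated genes had -0.06 over 19, cholesterol synthesis -0.02 over 13 and proteasome subunits 0.06 over 30. Proliferation genes had 0.20 over 15, with 13 above 0 (3860 of all 7428 measured genes were). Many were close to the floor, such as Mki67 at 313 and at the floor.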

How the data were processed

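Whole-lung RNA pooled per condition was hybridised to 1 oligonucleotide array each, per the labels. The deposited values were linear intensities, 1 for each of 22626 probe sets. How the authors summarised and scaled them is not given in the sources used here, and 9.85% to 12.5% of probe sets per array sat at a lower limit of 50.

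Log2 values were shifted so that the 5 arrays shared a median over the 9046 probe sets that exceeded each array's 50th percentile, by -0.11 to 0.13. Values under the 50th percentile of the pooled scaled intensities were raised to it, as a noise floor. Names came from the platform annotation, updated by gene ID from RefSeq on GRCm38.p6: 20380 had 1 gene (20351 matched), 691 several and 1555 none. The probe set with the highest mean stood for its gene, and 4956 of 12393 genes had more than 1. Levels are not compared between probe sets. Each pool had 6820 to 7439 genes above the floor. The number of arrays limits the precision.

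Groups came from the titles. Ratios are induced over uninduced with no test. The set left out comprised 4 striated muscle lists, the squamous list and every keratin. Named genes were the 10 highest ratios, outside the set the 20 highest and 20 lowest above the floor in both pools and past 2-fold, up to 4 members of each of 55 lists past 1.5-fold or else its 2 brightest, and Bmpr2 and Tagln, 163 in all, without predicted loci. Any other gene was chosen after its values were seen. Members, lists and rules were chosen with earlier results of these data known. The code was run on a copy of the uninduced array with added noise and differences planted in genes well above the floor. That run does not cover genes at the floor or the spread between real pools. Alternatives covered scaling, floor, pseudocount, probe set summary, fold and control pool. Python 3.11.15, numpy 2.4.6 and pandas 2.3.3 were used.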

Additional observations from a re-analysis of the deposited data

How the results depend on the processing

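Counts of genes depended on the floor and the fold chosen. Over all measured genes, where 145 were higher and 40 lower, a floor at the 30th percentile gave 225 higher, a floor at the 70th percentile 90 higher and 22 lower, 1.5-fold 433 and 221, and 3-fold 80 and 7. Without striated muscle and keratin genes, where 71 were higher, the same settings gave 140, then 36 and 22, then 349 and 221, then 24 and 7. Requiring a value beyond all 3 normal-pressure pools left 21 lower genes, with or without the set. By construction a lower floor tests more genes and a higher one fewer. The other scalings, quantile normalization, a pseudocount of 100, the mean of probe sets and the mean of the 2 transgenic normal-pressure pools as control kept each of the 4 counts within 1.5 times. Scaling on the 2 arrays alone, added after the data were seen, gave 147 higher and 42 lower. Leaving out the fat, mitochondrial and T-cell lists as well, also added then, gave 58 higher, and leaving out the neutrophil, macrophage and B-cell lists gave 31 lower.

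Over all settings, 14 of 55 list medians and 6 of the named genes, none of them past 2-fold, changed sign at least once, in 20 of 495 and 7 of 1440 recomputed values. The largest of these were the B and plasma cell list, the chemokine list and Hmgcs1 (0.40), and every other such list had a median under 0.2 in size. The B and plasma cell median of 0.37 became -0.17 with the floor at the 70th percentile and -0.24 against the mean of the 2 transgenic normal-pressure pools; the chemokine and cytokine median of -0.26 became 0.014 with the floor at the 30th percentile. The cause was not tested. The BMP-responsive median ranged from -0.51 to -0.35, the endothelial from -0.38 to -0.28, the type 2 from -0.53 to -0.41, the neutrophil from -1.62 to -0.76 and the fast sarcomere from 2.36 to 3.95. No paired analysis was possible because each condition is 1 array with no replicate number. Ratios of genes near the floor, and every difference of the size seen between the normal-pressure pools, are limited by signal over background and by single pools.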
